A study of Mus musculus and synthetic construct with 9 samples.

Results

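The measurements are the allelic effects of human SNPs on the activity of a reporter gene in MIN6 mouse β cells kept in DMSO, the solvent in which a stress-inducing drug was given to a parallel set of cells. For each SNP the reporter library held 2 versions of the same 200 bp of human genome that differed by the allele. The allelic effect was taken inside each DMSO library as log2 RNA over mean plasmid of the alternate allele minus that of the reference allele, so that the size of a library cancels. Of 6628 SNPs with both alleles in the tables, 6180 had a mean of at least 100 plasmid counts for each allele and are described here, and the other 448 are not. A threshold on plasmid counts chose these SNPs, with no use of RNA. The closest SNPs inside it, rs496238, rs223829 and rs4415160, had 100.0, 100.4 and 101.4 plasmid counts for the scarcer allele and effects of -0.46, -0.57 and 0.039. The closest outside it, rs9552911, rs7649799 and rs1319467, had 99.0, 99.4 and 99.4 counts and effects of -0.59, -0.24 and 0.21.

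MIN6 is an insulin-producing line derived from a mouse islet tumour. The DMSO group was 5 transfections made on separate days, in which the medium was exchanged 6 h after transfection for medium with 0.025% DMSO and RNA was taken at 30 h. The Tg group of 5 transfections received 250 nM thapsigargin in the same concentration of DMSO, and the standard culture group of 5 kept its medium. Groups DMSO and Tg share their 5 plasmid libraries, while standard culture has its own, and their first PCR ran 13 cycles against 9 for standard culture. All groups hold the same human sequences in one mouse line, from separately prepared plasmid batches for standard culture and for DMSO and Tg, and only barcodes in GFP RNA were read, so no marker gene of the cells could be checked.

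In a massively parallel reporter assay (MPRA), each sequence sits upstream of a minimal promoter and is identified by 20 bp barcodes in the reporter transcript. A sequence that recruits activators gives more barcode RNA than its share of plasmid, and a SNP that makes or breaks a binding site changes that ratio for 1 allele. Active here means more RNA than plasmid at an FDR of 1% by the quasi-likelihood test of edgeR, and a log2 ratio of 0 is the centre of the library after TMM scaling. The assay reads the sequence outside its chromosome, and the gene named beside a SNP is a matter of position and was not measured.

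The sequences that follow are some in which large DMSO effects can be read base by base, and others that the study used as binding probes. Each is the plus strand of hg19 around the SNP, in lower case with the allele in capitals, and is the part of the 200 bp construct for which sequence was at hand.
rs17748864, chr3:179649501-179649521, reference: tacagcacagCccaattaact
rs17748864, alternate: tacagcacagTccaattaact
rs10778949, chr12:83612850-83612878, reference: gatttattgacttaAcctggatcggcagt
rs10778949, alternate: gatttattgacttaGcctggatcggcagt
rs12201218, chr6:66653607-66653631, reference: ggtctctagaaaTgaaaggtagaat
rs12201218, alternate: ggtctctagaaaCgaaaggtagaat
rs12073009, chr1:241186336-241186361, reference: ataatgattaaatAggtaaaattgtg
rs12073009, alternate: ataatgattaaatGggtaaaattgtg
rs1076685, chr1:172993923-172993946, reference: cacacagagAtaatgttttaccag
rs1076685, alternate: cacacagagTtaatgttttaccag
rs13096599, chr3:66848795-66848823, reference: ggcaggacaatgatTtccccaggatgtgt
rs13096599, alternate: ggcaggacaatgatCtccccaggatgtgt
rs10194328, chr2:53398658-53398681, reference: gaaaaaagaaaGaaatgttatgtt
rs10194328, alternate: gaaaaaagaaaTaaatgttatgtt
rs10887775, chr10:89766355-89766381, reference: ctttctttgacttGccactgcatagca
rs10887775, alternate: ctttctttgacttAccactgcatagca
rs12477908, chr2:27987032-27987060, reference: ctaaaatacaaaaaAttgccagctgcggg
rs12477908, alternate: ctaaaatacaaaaaCttgccagctgcggg
rs11199771, chr10:122868200-122868228, reference: ccatccctggaccaAtcactggggctgga
rs11199771, alternate: ccatccctggaccaGtcactggggctgga
rs10811660, chr9:22134054-22134074, reference: ttcttgccctgtcaGcagctc
rs10811660, alternate: ttcttgccctgtcaAcagctc
rs4630391, chr13:26777814-26777834, reference: gcaggctgggCgcagtggctc
rs4630391, alternate: gcaggctgggTgcagtggctc

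In the windows of rs17748864, rs10778949, rs12201218, rs12073009, rs1076685 and rs13096599 the alternate allele gave more RNA over plasmid, and in the other 6 the reference allele did. In rs1076685 the alternate T completes GTTAAT, letters found in sites of HNF1, a homeodomain factor of liver and islet. The same change removes GATAA, the core read by GATA factors, from the reference. Letters were searched on both strands, and these motifs overlap at the SNP. In rs11199771 the reference A completes CCAAT, the box read by NF-Y, and the alternate G removes it. Among 95 windows of at least 21 bases, the reference sequence held GTTAAT in 1.05%, GATAA in 3.16% and CCAAT in 4.21%. CCAAT was gained or lost in 2 windows with an allelic effect, and the allele with the box was higher in 1 of them: in rs113736501 the alternate allele gained it and was lower. CG, the dinucleotide that can be methylated in cells, differed between alleles in 8 windows with an effect, and the allele with CG was higher in 5 of them. These motifs were chosen after the sequences were seen.

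In the DMSO libraries the effect of rs1076685, which lies between FASLG and TNFSF18, was 0.80, 0.66, 0.65, 0.78 and 0.86, and the T allele was 1.68-fold higher with limma adjusted p = 1.2e-05. That of rs11199771, between WDR11 and FGFR2, was -0.40, -0.64, -0.71, -0.24 and -0.32, and the A allele with the CCAAT box was 1.38-fold higher with adjusted p = 0.0023. Each SNP had 1 active allele, the one with more RNA over plasmid. The T to C change of rs12201218, which makes a CG, gave 0.86 ± 0.16, with the alternate allele higher in 5 of 5 libraries. In the A+T-rich window of rs12073009 in the RGS7 locus, a regulator of G protein signalling, A to G gave 0.80 ± 0.24. The G to T change of rs10194328, in a purine-rich run, gave -0.76 ± 0.30 from 137 and 231 plasmid counts. The remaining effects were -0.59 ± 0.17 at rs10887775, -0.49 ± 0.075 at rs12477908 and 0.43 ± 0.20 at rs13096599 near KBTBD8, each of one sign in 5 of 5 libraries.

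The sequence of rs4630391 was strongly active on both alleles, at 4.93 ± 0.12 with the reference C and 4.43 ± 0.12 with T (log2 RNA over plasmid, mean ± SD, n = 5). In the DMSO libraries its effect was -0.49, -0.49, -0.52, -0.49 and -0.51. The alternate allele was lower in 5 of 5 libraries, with a fold of 1.41 and limma adjusted p = 2.1e-05.

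Allelic effects in DMSO were common among active sequences and mostly small. At least 1 allele was active for 1554 of the 6180 SNPs, and limma found an allelic effect at an FDR of 10% for 667 of them, where 43.0% of all tested SNPs passed. The alternate allele was higher at 326 and the reference allele at 341, against 21.1% and 21.9% of all tested. The effect kept its sign in 5 of 5 libraries at 564 SNPs, in 4 at 100 and in fewer at 3. Over all 1554 tested SNPs it did so in 5 of 5 at 634 (40.8%), and at 7.89% of those not past the test. The test itself favours SNPs with one sign, and the libraries share one plasmid mean. Among those past the test the size ran from 0.083 to 4.16 on the log2 scale, with a median of 0.22 (1.17-fold) and quartiles of 0.16 and 0.36 (1.12-fold and 1.29-fold). A difference of at least 1.5-fold was seen at 67 SNPs, of at least 2-fold at 22, of at least 4-fold at 5 and of at least 8-fold at 2. Among the 4626 SNPs with no active allele the median size was 0.068, 14 reached 1.5-fold and none reached 2-fold.

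The active allele was found in the same libraries in which the effect was tested, so a SNP tested through 1 active allele was partly chosen for a difference. Without that filter, 8.57% of all SNPs with at least 10 plasmid counts passed, and 529 of the 6180, of which 368 were among the 667. The test reads the spread between transfections and not the error of the plasmid ratio, and 71 of the 667 effects (10.6%) were under 3 standard errors of that ratio. An edgeR fit added after the data were seen took plasmid and RNA counts together over all SNPs, and 424 of the 667 passed it. With total count scaling in place of TMM, 248 SNPs had an active allele and 183 passed, 153 of them among the 667. Across the main setting and the 23 alternatives other than total count scaling, 314 SNPs passed each time, of which 108 passed with that scaling too. The 314 were 154 with the alternate and 160 with the reference allele higher, with a median size of 0.36 and a smallest of 0.15. The 10 largest rises and the 10 largest falls were all among these 314. Each allele carries barcodes of its own in every library, so an effect of a barcode and of the allele cannot be told apart.

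Among the largest effects were SNPs at which 1 allele was active and the other lay at the centre of the library. The largest rise was rs17748864, C to T at position 179649511 of chromosome 3 in the PEX5L locus. With C the ratio was -0.43, -0.27, -0.11, -0.058 and -0.27 in the 5 DMSO libraries, and with T it was 3.18, 3.00, 3.13, 3.28 and 3.13. No library of one allele came near those of the other, and the alternate allele was 10.3-fold higher, with an effect of 3.37 ± 0.14 (n = 5) and limma adjusted p = 1.3e-08. The alleles had 1376 and 1241 plasmid counts, and the standard error of their plasmid ratio was 0.073.

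Other SNPs switched on with the alternate allele in the same way. At rs10778949, A to G at position 83612864 of chromosome 12, A gave 0.00015, 0.30, 0.084, 0.10 and 0.23 and G gave 2.85, 2.72, 2.91, 2.96 and 2.87, a fold of 6.59 with limma adjusted p = 1.9e-07. At rs13130845, A to C at position 6297646 of chromosome 4 in the locus of WFS1, which encodes a membrane protein of the endoplasmic reticulum, A gave -0.17, 0.068, 0.032, -0.14 and -0.13 and C gave 2.32, 2.17, 2.31, 2.39 and 2.41, a fold of 5.25 with limma adjusted p = 2.5e-07. The reference allele lay near the centre of the library in every transfection, and no value of one allele reached the other. At rs76846759, C to T in the locus of ADCY5, an adenylyl cyclase that makes cAMP, the effect was 1.45, 1.66, 1.57, 1.61 and 1.5, and T was 2.94-fold higher. The alternate allele was higher in 5 of 5 libraries. At rs3115025, for which no position was at hand, the effect was 1.70, 1.49, 1.60, 1.82 and 1.69 and the fold 3.16.

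The largest effect of all was a loss. At rs2215383, T to C at position 15062983 of chromosome 7, between DGKB, a diacylglycerol kinase, and AGMO, a lipid monooxygenase, the reference T gave 4.06, 3.85, 4.05, 4.25 and 4.25 and C gave 0.073, -0.34, -0.052, -0.013 and -0.027. The reference was far above the library in every transfection, and the alternate lay at its centre. The reference was 17.9-fold higher, an effect of -4.16 ± 0.12 (n = 5) with limma adjusted p = 2.4e-09. The alleles had 1096 and 1633 plasmid counts.

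Below it the falls were smaller. At rs10840079, A to G in an intron of STK33, a protein kinase, A gave 1.49, 1.43, 1.26, 1.37 and 1.57 and G gave -0.071, -0.10, -0.15, -0.14 and -0.16, 2.93-fold less. At rs10933640, G to A in an intron of AGXT, a peroxisomal aminotransferase of glyoxylate, the effect was -1.15, -1.07, -1.22, -1.09 and -1.0. At rs8181050, G to A in the locus of CDKN2B-AS1, a non-coding RNA antisense to inhibitors of the cell cycle, it was -1.03, -0.90, -1.05, -1.15 and -1.08. In all 3 the alternate allele was lower in 5 of 5 libraries and was not called active. At rs270661, C to T between genes near RNF145, the effect was -1.12 ± 0.15, and at rs9452650 it was -1.0 ± 0.10. At rs10073782 it was -1.83 ± 0.32, with 108 plasmid counts for the alternate allele and a wider range, from -2.17 to -1.39.

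A second kind of SNP tuned a sequence that was active with both alleles. Both alleles were active at 994 SNPs, of which 325 (32.7%) passed the limma test, 155 with the alternate and 170 with the reference allele higher. The largest rise in this class was at rs34700788, where the reference gave 4.90, 4.74, 4.87, 5.01 and 4.97 and the alternate 6.24, 6.09, 6.28, 6.49 and 6.38, a fold of 2.64 on top of an already strong sequence. At rs72697237, A to T in an intron of NOTCH2, a cell-surface receptor, the reference gave 5.44, 5.22, 5.15, 5.34 and 5.28 and the alternate 6.79, 6.50, 6.52, 6.77 and 6.60, a fold of 2.55. The libraries moved up and down together in both alleles, and the difference between alleles kept within 1.28 and 1.43. At rs6816071, G to A near ANXA5, which binds phosphatidylserine, the effect was 1.20 ± 0.23. At rs527313 it was 1.03 ± 0.094, and at rs9434444 0.77 ± 0.095.

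Among falls with both alleles active, rs3746886 had an effect of -1.13, -0.80, -1.49, -1.61 and -0.99, with a wide spread and a plasmid standard error of 0.17. At rs3934674 the effect was -1.13, -0.98, -1.24, -1.14 and -1.20, and at rs3773980 it was -1.05, -0.94, -0.96, -0.95 and -0.99. The scarcer allele of these SNPs had 2898 and 5254 plasmid counts, and their libraries lay close together. At rs17236779, C to T in an intron of CDH18, a cadherin, the effect was -0.97 ± 0.094. The strongest sequence among the named SNPs was that of rs4300038 at SLC30A8, the zinc transporter of insulin granules, with 9.17, 9.06, 9.20, 9.39 and 9.32 for G and 8.19, 8.05, 8.29, 8.49 and 8.39 for A. Both alleles were far above the library, and the alternate was 1.92-fold lower in DMSO with limma adjusted p = 1.1e-06.

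The share of SNPs past the test rose with the activity of the stronger allele, and so did the precision. That activity was read from the same libraries as the effect, so a large allelic difference can itself raise the class of a SNP. Where the stronger allele was under 0.5 on the log2 scale, 363 of 997 SNPs passed (36.4%). From 0.5 to 1 it was 187 of 368 (50.8%), from 1 to 2 it was 71 of 123 (57.7%), from 2 to 4 it was 21 of 33 (63.6%) and over 4 it was 25 of 33 (75.8%). The median SD between libraries fell from 0.11 in the weakest class to 0.031 in the strongest, while the median size of effects past the test was 0.19 in the weakest and 0.36 in the strongest. Active sequences gave more RNA reads, and the part of read depth in this rise was not tested. By the lower mean RNA count of the alleles, the median SD was 0.29 in the lowest class, under 500 counts, and 0.054 in the highest. From the lowest to the highest of these 5 classes 36.5%, 48.4%, 43.8%, 40.2% and 49.2% of SNPs passed, with no steady rise. At strong sequences effects as small as 0.083 passed.

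Where 1 allele alone was active, 171 of 267 SNPs with an active reference allele and 171 of 293 with an active alternate allele passed. The direction follows from the class and is not a result, and all these effects favoured the active allele. The median size of effects past the test was 0.25 and 0.24 in these classes and 0.20 where both alleles were active. At the 4626 SNPs with no active allele the test over all SNPs called 161 (3.48%), with 95% of effects under 0.25.

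Between pairs of DMSO libraries, the allelic differences had correlations of 0.80 to 0.84 across the 1554 tested SNPs. Across the 667 past the test they were 0.92 to 0.93, and across SNPs with no active allele 0.084 to 0.16. The points share each library and one set of plasmid libraries, and these values describe how alike the libraries were. DMSO libraries held 28896082 to 33325429 counts over the sequencing runs, and plasmid libraries 23009482 to 36129587. The 10 most abundant sequences took 20.2% to 22.8% of a DMSO library and 0.59% to 0.60% of a plasmid library.

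By kind of base change the shares were close, with no test made. Alleles were listed for 3130 SNPs. Transitions passed at 220 of 492 tested SNPs (44.7%), transversions at 85 of 206 (41.3%) and insertions or deletions at 13 of 24 (54.2%), with median sizes past the test of 0.23, 0.24 and 0.19. Where one allele was G or C and the other A or T, the G or C allele was higher at 144 of 258 SNPs past the test (55.8%), at 49.7% of tested SNPs that did not pass and at 50.2% of SNPs with no active allele. A place relative to genes was listed for part of the SNPs, among them 391 in introns and 349 between genes. Effects past the test were found at 66 of 121 tested SNPs in introns (54.5%) and 60 of 121 between genes (49.6%). The places come from the study's motif predictions, partly made for SNPs with allelic effects in this assay. These shares are therefore not comparable with the 43.0% of all tested. Small classes ranged widely, with 2 of 9 in 5′ UTRs, 3 of 11 upstream of genes and 3 of 7 in 3′ UTRs. In introns of non-coding RNAs it was 6 of 12, in their exons 0 of 2, and downstream of genes 1 of 1.

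Of 20 SNPs of T2D loci that the study discusses, 17 had an active allele and 14 passed the limma test, and 7 passed under every setting but total count scaling. The study discusses them for their results in this assay, so the count is not independent of these libraries. rs17748864 and rs4630391 are described above. At rs10811660, G to A near CDKN2B-AS1, the reference gave 0.33, 0.53, 0.26, 0.37 and 0.38 and the alternate 0.097, 0.040, -0.11, 0.016 and -0.074, an effect of -0.38 ± 0.099 with limma adjusted p = 0.00048. At rs10811661, 26 bases away, T to C gave an effect of 0.11, 0.11, 0.12, 0.16 and 0.10, positive in each library and smaller, with adjusted p = 0.025. It did not pass over all SNPs, by limma (adjusted p = 0.13) or by edgeR (adjusted p = 0.42). The constructs of these 2 SNPs overlap.

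At rs3802177 in the 3′ UTR of SLC30A8 the effect was -0.35 ± 0.15 with limma adjusted p = 0.0028. At rs10428126 in an intron of IGF2BP2, which encodes an RNA-binding protein, it was -0.24 ± 0.12 with adjusted p = 0.0088. In both, the reference allele alone was active, weakly. In the LARP6 locus, LARP6 being an RNA-binding protein, rs113350503 was strongly active with either allele at 3.64 ± 0.087 and 3.86 ± 0.11, and its effect was 0.25, 0.14, 0.27, 0.22 and 0.21. The alternate allele was higher in 5 of 5 libraries.

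At rs7903146 in the locus of TCF7L2, a transcription factor of the Wnt pathway, the effect was 0.18, -0.015, 0.19, 0.17 and 0.14, with limma adjusted p = 0.042. 4 libraries lay between 0.14 and 0.19 and 1 just below 0, and without DMSO replicate 1, 3 or 4 the call was lost. Over all SNPs, rs7903146 did not pass by limma (adjusted p = 0.19) and passed by edgeR (adjusted p = 0.022). At rs12189774 in the VEGFA locus, an angiogenic growth factor, the effect was -0.16 ± 0.035 (adjusted p = 0.0092). At rs2943656 in the locus of IRS1, an adaptor of the insulin receptor, it was 0.15 ± 0.095 (adjusted p = 0.034), and at rs1635852 in an intron of JAZF1, a zinc finger protein, 0.15 ± 0.099 (adjusted p = 0.036). The last pair did not pass in the fits over all SNPs. rs947734 had 0.12 ± 0.051 (adjusted p = 0.033) and rs4846567 0.12 ± 0.065 (adjusted p = 0.046), and neither passed in those fits.

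The other 3 tested SNPs of this set missed the threshold. rs11603349 in an intron of ARAP1, a regulator of small GTPases, was strongly active at 3.67 ± 0.045 and 3.75 ± 0.054, with an effect of 0.079 ± 0.033 and limma adjusted p = 0.11. rs947735, whose libraries ran from -0.058 to 0.33, had adjusted p = 0.13. rs6937795 had -0.031 ± 0.074 and adjusted p = 0.57, from 8852 and 10351 plasmid counts. rs10507349, rs2879813 and rs34584161 had no active allele in DMSO, and their effects were -0.038 ± 0.087, 0.042 ± 0.12 and -0.15 ± 0.16.

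Linked SNPs of one T2D association signal were often tested together. SNPs were assigned to signals from shortened lists of the study, partly made for SNPs with allelic effects in this assay. The numbers per signal are therefore incomplete and not comparable between signals. Of 322 tested SNPs assigned to a signal, 140 passed (43.5%), where 43.0% of all tested did. Of 204 signals with described SNPs, 78 had at least 1 past the test, 46 of them 1 SNP, 18 had 2 and 14 had 3 or more. In 20 of the 32 signals with 2 or more, alternate alleles went both ways. Alternate alleles of linked SNPs need not lie on one haplotype. The 5 signals with the most, chosen for that number, held 28 SNPs past the test. Of these 28, 18 also passed by limma and 16 by edgeR over all SNPs, and 11 under every setting but total count scaling.

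In the signal of rs6017317 near FITM2, a protein of lipid droplet formation, 28 SNPs were described, 8 were tested and 6 passed, 3 each way. Its strongest, rs2144906, G to C, gave 5.84, 5.64, 5.65, 5.67 and 5.78 with G and 5.33, 5.09, 5.04, 5.15 and 5.24 with C, an effect of -0.55 ± 0.037. rs35741667, an insertion of G, gave 0.34 ± 0.081 and rs4276083 0.28 ± 0.071, both higher with the alternate allele. In the signal of rs12304921 near HIGD1C, 42 were described, 12 were tested and 6 passed. rs224587 led it with 0.50, 0.48, 0.50, 0.49 and 0.58, and its plasmid standard error was 0.16. rs4768941 and rs4768942, 100 bases apart, had effects of -0.16 ± 0.081 and -0.21 ± 0.10, both lower with the alternate allele, and the first did not pass by limma over all SNPs (adjusted p = 0.13).

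In the signal of rs12027542 at PCNX2, 35 were described, 8 were tested and 6 passed. Here rs113736501 was the most active, with 7.30, 7.31, 7.53, 7.67 and 7.58 for C and 7.00, 6.99, 7.25, 7.39 and 7.28 for T. The groups overlap as levels, and both alleles were high or low in the same libraries. The difference within a library was -0.30, -0.32, -0.28, -0.29 and -0.30. A deletion of 6 bases at rs150937899 gave -0.23 ± 0.094, and one of 6 bases at rs200026175 gave 0.20 ± 0.072. In the signal of rs564398 at CDKN2B-AS1, 31 were described, 6 were tested and 5 passed: rs8181050 above, rs1412829 with 0.34 ± 0.046, rs2383205 with 0.24 ± 0.063, rs7866783 with -0.19 ± 0.18 and rs35158895 with 0.11 ± 0.10. The last 3 did not pass by edgeR over all SNPs (adjusted p = 0.14, 0.14 and 0.22). In the signal of rs2055942 at GABRA4, a receptor subunit for GABA, 62 were described, 9 were tested and 5 passed. There rs67592528 had 0.33, 0.40, 0.34, 0.42 and 0.42 and rs9992220, 79 bases away, had -0.20, -0.36, -0.17, -0.29 and -0.19. These neighbours had opposite signs in 5 of 5 libraries.

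Among SNPs with a position, 341 pairs lay within 200 bases and so share part of their constructs. In 33 pairs 1 SNP passed and in 5 both did, 2 of them in the same direction. Neighbouring constructs that share bases differed in activity in some pairs and were alike in others. Whether this came from where the 200 bases began or from the barcodes of each construct was not tested. The reference construct of rs4630391 stood at 4.93, while those of rs4545656 and rs34897738, 83 and 113 bases away, stood at -0.045 and -0.18, with effects of -0.011 and 0.072. The reference construct of rs3751236 stood at 6.17 with an effect of 0.36, and that of rs7970193, 101 bases away, at 0.32 with an effect of -0.090. In these examples, chosen after their values were seen, the large effect went with the shifted window that was active.

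The 20 SNPs compared first were the largest rises and the largest falls in DMSO, in equal numbers. They are not the 20 largest effects regardless of sign. All 20 had the same sign in standard culture and in Tg. By the tests that follow, 14 of the 20 differed in size from standard culture and 2 from Tg. These 20 were chosen for their size in DMSO, yet the effect was smaller in standard culture than in DMSO at only 8 of them. In Tg it was smaller than in DMSO at 4, and at the rest it was larger. Limma found a difference between DMSO and standard culture at 298 of 1857 SNPs, where 16.1% of all tested passed. For 173 of the 298 the libraries of the groups did not overlap. This was counted only among SNPs past the test, with no share over all 1857, and is not support beyond the test. The effect was larger in DMSO at 243 and smaller at 55, and it had opposite signs at 91. Over all 1857 SNPs it was larger in DMSO at 65.1%, with median sizes of 0.095 in DMSO and 0.060 in standard culture, and the median SD between libraries was 0.11 against 0.076. Treatment, plasmid batch and number of PCR cycles all differ between these groups and cannot be told apart. Tested over all SNPs, the number was 152, and 271 differed by at least 3 standard errors of the plasmid ratios, an alternative added after the data were seen.

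At the SNPs that follow the effect was smaller in standard culture than in DMSO. At rs250972 the effect was -0.59, -0.91, -1.39, -1.06 and -0.87 in DMSO and -0.19, -0.30, 0.081, -0.19 and 0.34 in standard culture, a difference of -0.91 (SE 0.15, limma adjusted p = 0.0049), from 172 and 269 plasmid counts. At rs10108011 in an intron of PPP3CC, a calcineurin subunit, it was 0.71, 1.08, 0.73, 0.83 and 1.05 in DMSO and 0.17, 0.38, 0.25, 0.30 and -0.013 in standard culture (adjusted p = 0.0027). At rs527313 the means were 1.03 ± 0.094 and 0.44 ± 0.15 (adjusted p = 0.0022). No library of one group reached the other at these SNPs. At rs12884077 the means were 0.86 ± 0.29 and 0.23 ± 0.22 (adjusted p = 0.015), and the scarcer allele had 356 plasmid counts against a median of 2050 for the scarcer allele of all 6180 SNPs.

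Between DMSO and Tg fewer effects differed. DMSO and Tg share their plasmid libraries, so an error in a plasmid ratio cancels in the difference. Limma found 64 of 1655 SNPs, where 3.83% of all tested passed. The groups did not overlap at 54 of the 64, again counted only among SNPs past the test and not support beyond it. The effect was larger in DMSO at 45 and smaller at 19. This count was not stable, since leaving out 1 DMSO library left 19 to 36, the least without DMSO replicate 2, testing over all SNPs left 9, and the library number as a replicate block left 10. The 4 SNPs that follow passed with the block. The median SD between libraries was 0.15 in Tg.

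At rs9434444 the effect was 0.78, 0.77, 0.63, 0.79 and 0.89 in DMSO and 0.061, 0.030, 0.35, 0.092 and 0.10 in Tg, a difference of 0.64 (SE 0.075, limma adjusted p = 0.0017). At rs78767971 it was 0.89, 1.07, 0.66, 0.91 and 0.84 in DMSO and 0.16, 0.42, 0.077, 0.045 and 0.46 in Tg (adjusted p = 0.0088). Both effects were well above 0 in every DMSO library and weak in Tg. They were also smaller in standard culture, without the drug, at 0.35 ± 0.12 for rs9434444 and 0.34 ± 0.13 for rs78767971. These differed from DMSO with limma adjusted p = 0.0037 and 0.0028. Neither allele of these SNPs was called active in Tg. The mean Tg ratios of reference and alternate were 0.052 and 0.18 at rs9434444 and -0.13 and 0.11 at rs78767971. The reverse was seen at rs11075992 in an intron of FTO, an RNA demethylase, where no allele was active in DMSO: the effect was -0.066, 0.082, 0.048, -0.0061 and 0.044 in DMSO and 0.74, 0.58, 0.50, 0.46 and 0.76 in Tg (adjusted p = 0.0017). At rs72775940 the effect was 0.089 ± 0.078 in DMSO and -0.50 ± 0.20 in Tg (adjusted p = 0.0088). At both SNPs the DMSO libraries lay on either side of 0 or close to it.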

How the data were processed

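Barcodes of reporter RNA and plasmid were sequenced in 5 DMSO, 5 Tg and 5 plasmid libraries over 2 runs, and in standard culture libraries with plasmid libraries of their own. Values are counts, deposited by the authors as the sum over the barcodes of each sequence in each library, before normalization. DESeq2 appears in the submitters' processing notes with no version. The counting program was not given in the sources used here. Columns of one name were summed over the runs, and per-sample columns not read number 0. Standard culture columns were named as such in the table, and which of them were the study's 5 replicates was taken from the set of columns, 1 of 216 compared, that gives mean counts the study states for 1117 SNPs. With all standard culture numbers in place of that set, 388 SNPs differed from DMSO.

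Activity was tested with edgeR 4.0.16 (R 4.3.3, TMM scaling, quasi-likelihood, FDR 1%, at least 10 mean plasmid counts). Allelic effects were tested with limma 3.58.1 on within-library differences (pseudocount 1, FDR 10% over all SNPs with an active allele), and their difference between conditions with limma in an unpaired model. All p-values are two-sided. DESeq2 1.42.0 was an alternative for activity. The study calls its replicates paired without saying which numbers belong together. Deviations of same-numbered DMSO and Tg libraries correlated at -0.035 to -0.010, and the library number as a block was an alternative. Pairs of DMSO libraries differed by more than sampling noise (chi-square per degree of freedom from 9.08 to 21.3). The code was tested on simulated data, and tables were made with Python 3.11.15.

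The SNPs, lists and rules were chosen with earlier results of these data known. Named SNPs are the 10 largest rises and falls, the 5 largest of each with both alleles active, the 6 largest on each of the study's lists, SNPs the study discusses, the 12 largest with at least 21 bases of sequence, the 5 largest differences from each other condition and the SNPs of the 5 signals with most past the test. Some of these SNPs are not reported here. Positions, alleles and loci are those the study gives for hg19. The genome at hand is mouse and was not used. Counting intervals were not computed, since PCR reads without molecular identifiers are not independent molecules.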

Additional observations from a re-analysis of the deposited data

Results flagged for a closer look

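In 4 SNPs chosen by the rule for named SNPs, 1 of the 5 DMSO libraries stood apart from the other 4 by Dixon's criterion, which chance meets in about 1 of 20 groups, and 85 such SNPs were looked at. At rs7903146 the library at -0.015 stood below the others, among 0.18, -0.015, 0.19, 0.17 and 0.14. At rs143582379 it was the library at 0.018, where the effect was -0.23, 0.018, -0.20, -0.27 and -0.26. At rs12884077 the library at 1.36 stood above the others, and at rs224587 the library at 0.58 did.

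The allelic effect differed between DMSO and standard culture in the limma test at the SNPs listed here. The difference, DMSO minus standard culture, was 0.59 at rs527313, -0.91 at rs250972, 0.66 at rs10108011 and 0.63 at rs12884077. Between DMSO and Tg the difference, DMSO minus Tg, was 0.64 at rs9434444, 0.64 at rs78767971, 0.59 at rs72775940 and -0.59 at rs11075992. These SNPs were chosen for the size of these differences.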

How the results depend on the processing

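Of 102 recomputed counts, 91 stayed within 1.5 times the value reported. With total count scaling in place of TMM, 248 SNPs had an active allele and 183 passed, 92 with the alternate and 91 with the reference allele higher. Allelic effects that differed from standard culture numbered 152 over all SNPs. Those that differed from Tg numbered 9 over all SNPs, 10 with the library number as a replicate block, and 19 to 36 when each DMSO library was left out. For allelic effects in DMSO, plasmid libraries of the same number as a replicate block gave 507 calls, an unpaired comparison of the alleles with no replicate block 549, edgeR with a replicate block 558 and 576 over all SNPs, a paired test of each SNP alone 569, either sequencing run alone 647 or 633, leaving out each DMSO library 577 to 642 and each plasmid library 659 to 682. No SNP past the test in any of these fits and among the 667 had the opposite direction. The fits share the same libraries, so agreement in direction, here and in the next sentence, is not independent evidence. For the 85 SNPs chosen by the rule for named SNPs, 1848 recomputed effects held no reversal, 115 lost their call and 17 gained one. Of their 76 calls, 52 were made in every setting but total count scaling, 39 with that scaling and 35 in all. The same-number plasmid block ended the call of rs10017264, rs1635852, rs1884610, rs2269686, rs2943656, rs35158895, rs6031507, rs73310020, rs7866783 and rs947734. What could be detected differs with depth, since the median SD between libraries was 0.29 at SNPs with under 500 RNA counts and 0.054 in the class with the most.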
